A study of Mus musculus with 10 samples.

Results

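The genes described here are the NFAT transcription factors Nfatc1, Nfatc2, Nfatc3, Nfatc4 and Nfat5, the calcineurin regulators Rcan1 and Rcan2, and the calcineurin A genes Ppp3ca and Ppp3cb. Their rows were picked out by symbol, from a list chosen with earlier results of these data known. All 9 were found among the 23230 features of the expression matrix. RNAseq was performed on 10 mouse libraries. The 3 AstroEGFR* libraries were cortical astrocytes of C57BL/6 mice at postnatal day P5 that carry a p16/p19 knockout (Ink4a/Arf-null) and express human EGFRvIII, a constitutively active EGF receptor, from a retroviral vector. The 4 PT libraries were glioma propagating cells taken from the primary tumours that such astrocytes formed in the brains of CD1 Nude hosts, which lack mature T cells but keep other immune cells. The 3 AstroEGFR* Zfp423 libraries were the same 3 astrocyte batches infected with a further vector for Zfp423, a zinc finger transcription factor of BMP and SMAD signalling. All libraries share the p16/p19 knockout and the EGFRvIII vector, and all cultures were below passage 10. The astrocytes grew in serum and the PT cells without it, on growth factors, so that the medium and the passage through a tumour cannot be told apart. The tumours of PT1 and PT4 arose from astrocyte batch 1, that of PT2 from batch 2 and that of PT3 from batch 3, and each library was 1 culture. The comparisons ask how the 9 genes differ between tumorigenic astrocytes and the glioma cells derived from them, and between astrocytes with and without the Zfp423 vector.

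Calcineurin is a phosphatase that is switched on by calcium and calmodulin. It is built from a catalytic A subunit, encoded by Ppp3ca, Ppp3cb or Ppp3cc, and a regulatory B subunit, encoded by Ppp3r1. It removes phosphates from the NFATc proteins (Nfatc1 to Nfatc4), which then enter the nucleus, while kinases of the GSK3, DYRK and casein kinase families send them out again. Rcan proteins bind and restrain calcineurin, and Rcan1 is itself a classic NFAT target, which forms a feedback loop. Nfat5 shares the DNA-binding domain but not the calcineurin dependence and is known as the factor of the response to osmotic stress. In brain, calcineurin A alpha (Ppp3ca) is abundant in neurons, and NFAT activity has been studied in reactive astrocytes.

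The promoters of Rcan1 and Nfatc4 are shown because Rcan1 is the textbook NFAT target of the group and Nfatc4 was the gene with the clearest separation between AstroEGFR* and PT. Each window holds the 250 bases before an annotated start, from RefSeq on GRCm38.p6, read along the strand of the gene, and capitals mark GGAAA, the core of the NFAT-binding element, or its reverse complement TTTCC. Rcan1 has 2 annotated starts on chromosome 16, 66.1 kb apart. The upstream window, chr16:92466170-92466419 on the minus strand, held 0 matches, and the downstream window, chr16:92400079-92400328, held 3. The window of Nfatc4, chr14:55824545-55824794 on the plus strand, also held 3. GGAAA on either strand was present in 55.6% of the 32851 promoter windows of this length, so a match is common and describes the letters only.
Rcan1 upstream start: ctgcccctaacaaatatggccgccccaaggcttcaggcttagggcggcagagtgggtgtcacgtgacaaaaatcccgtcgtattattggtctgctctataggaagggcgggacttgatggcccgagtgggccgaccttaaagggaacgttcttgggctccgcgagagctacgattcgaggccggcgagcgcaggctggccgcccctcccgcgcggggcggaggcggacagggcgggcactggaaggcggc
Rcan1 downstream start: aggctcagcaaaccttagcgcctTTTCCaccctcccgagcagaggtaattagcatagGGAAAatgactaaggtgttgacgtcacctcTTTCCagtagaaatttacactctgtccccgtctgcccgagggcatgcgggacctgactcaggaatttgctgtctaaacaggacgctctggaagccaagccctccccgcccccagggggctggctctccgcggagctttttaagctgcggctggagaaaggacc
Nfatc4 start: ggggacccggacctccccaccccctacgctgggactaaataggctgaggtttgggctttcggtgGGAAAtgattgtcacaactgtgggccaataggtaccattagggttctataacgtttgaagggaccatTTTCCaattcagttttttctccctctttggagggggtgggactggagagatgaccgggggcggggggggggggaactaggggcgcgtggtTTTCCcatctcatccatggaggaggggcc
The matrix holds 1 value per gene, so that transcripts from the pair of Rcan1 starts are not separated in the values below.

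The libraries also differed in composition, in part along the groups. The FPKM values of a library summed to between 361102 and 860068, and the depth is unknown, since no counts of fragments were at hand. AstroEGFR*3 and PT3 listed 8417 and 9155 features at 0, against 6200 to 7436 in the other 8. Features listed at 0 in 5 or more libraries had a median of 0.139 FPKM in AstroEGFR*3 and 0.144 in PT3 where listed, against 0.0186 to 0.0365 in the others. Small RNA and histone features made up 0.844%, 29.7% and 4.88% of the summed FPKM in AstroEGFR*1 to AstroEGFR*3, 0.801% to 34.4% in PT, and 35.8%, 36.1% and 54.8% with the Zfp423 vector, above the own batch in all 3 batches. Zfp423 itself was listed at 15.7, 9.73 and 105 FPKM with the vector in batches 1, 2 and 3, against 4.30, 3.25 and 3.48 without it, and at 0.641 to 2.78 in PT. Cdkn2a, which encodes p16 and p19, was listed at 3.96 to 130 FPKM, a value per gene that does not say whether the deleted exons were covered. Markers of other cells were present in some libraries. All 10 markers of microglia and macrophages reached 1 FPKM in the AstroEGFR*1 Zfp423 and AstroEGFR*2 Zfp423 libraries, with sums of 1565 and 909 FPKM, against sums of 1.23 to 36.7 in the other 8. In the AstroEGFR*2 Zfp423 library the astrocyte markers summed to 79.4 FPKM, with 6 of 10 at or above 1 FPKM. Aldh1l1 was at 1.69, Gfap at 1.11 and Aqp4 at 0.027 FPKM, while Gja1 was at 52.2 and Glul at 20.0 FPKM. Each marker listed above 0 was at its lowest of the 10 libraries there, which leaves the astrocyte label of this library in doubt. The differences with Zfp423 are therefore given with and without it. The values without it keep AstroEGFR*1 Zfp423, which has the higher microglia sum, and are not cleared of other cells.

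Among the 9 genes, Ppp3ca had the highest level per length, at 44.2 to 151 FPKM over the 10 libraries. Ppp3cb followed at 18.1 to 44.9 FPKM. Nfatc3, at 12.8 to 25.1 FPKM, was the most highly expressed NFAT gene in each of the 10 libraries and varied least among the genes above 1 FPKM, with a range of 0.92 on the log2(FPKM + 1) scale. Rcan1, at 8.22 to 28.0 FPKM, overlapped with Nfatc3, and Nfat5, the osmotic stress factor, lay at 4.18 to 11.8 FPKM. Nfatc1 lay at 0.808 to 9.45 FPKM and Nfatc2 at 0 to 0.856 FPKM, the lowest of the group. The 2 genes with the widest range were Rcan2, from 0.304 to 30.1 FPKM, and Nfatc4, from 0.0229 to 21.5 FPKM, which amounts to 4.57 and 4.46 on the log2(FPKM + 1) scale. The order of mean levels over the 10 libraries was Ppp3ca, Ppp3cb, Nfatc3, Rcan1, Rcan2, Nfat5, Nfatc4, Nfatc1 and Nfatc2, and the ranges of each pair of neighbours in it overlapped. The means of Nfatc4 and Nfatc1, 4.35 and 4.31 FPKM, became 2.44 and 3.74 FPKM without the AstroEGFR*2 Zfp423 library, and those of Nfatc3 and Rcan1, 18.4 and 17.0 FPKM, became 17.7 and 17.8 FPKM, which turns the order of both pairs.

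**Figure D1:**
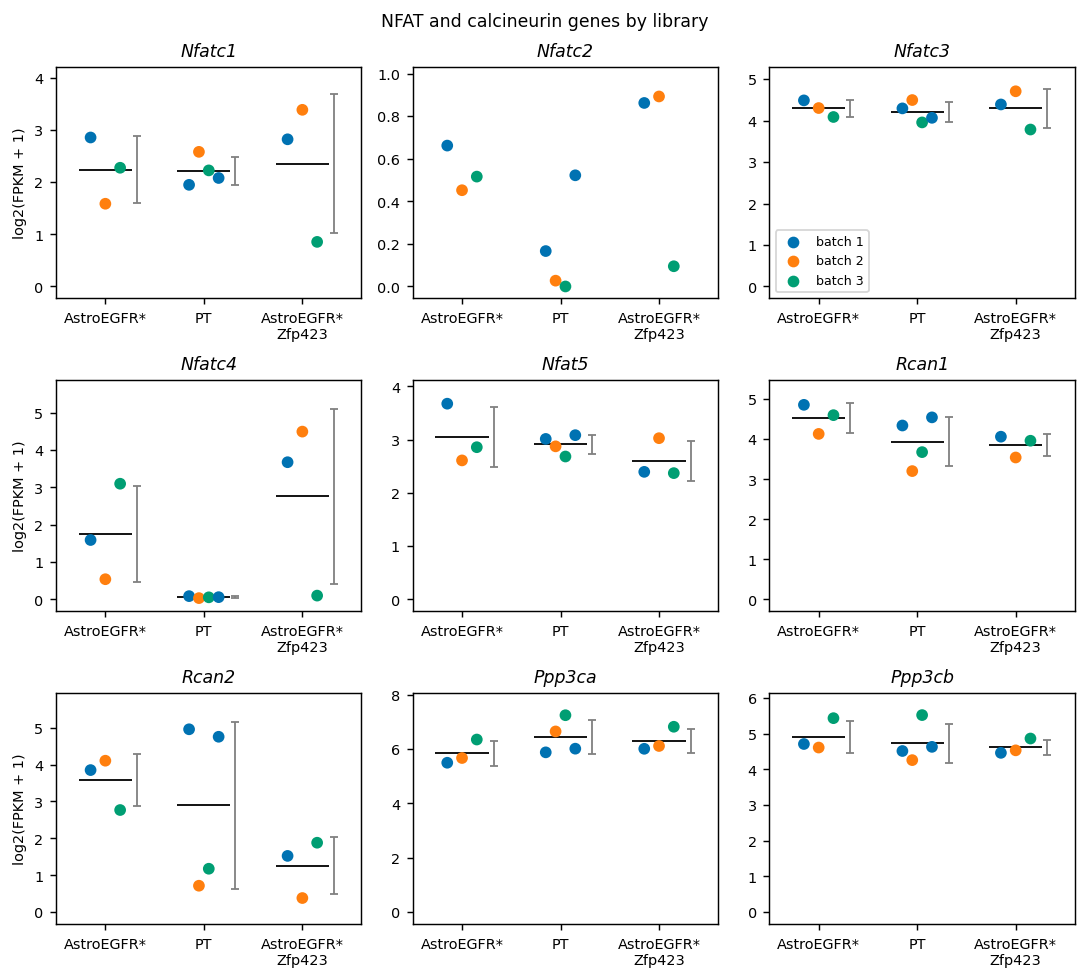
Level of each of the 9 genes as log2(FPKM + 1), 1 point per library, coloured by astrocyte batch, for AstroEGFR* (3 libraries), PT (4) and AstroEGFR* Zfp423 (3). Black lines are group means and grey bars the SD, left out for Nfatc2, which is listed at 0 in PT3. Nfatc4 is near 0 in all 4 PT libraries, Nfatc3 is even throughout, and Rcan2 in PT falls into high libraries of batch 1 and low libraries of batches 2 and 3.

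Between AstroEGFR* and PT, Nfatc4 had the largest difference of the genes tested. In the astrocytes of batches 1, 2 and 3 it was listed at 2.01, 0.453 and 7.55 FPKM, and the PT libraries 1 to 4 listed it at 0.0611, 0.0229, 0.0379 and 0.0410 FPKM. The groups did not overlap, and the lowest AstroEGFR* value was 7.41 times the highest PT value. The limma fit gave a difference of -1.68 ± 0.59 (SE) on the log2(FPKM + 1) scale with an unadjusted p of 0.0229 and a Benjamini-Hochberg adjusted p of 0.278, which did not pass the threshold of 0.05. With a pseudocount of 0.1, which compresses low values less, the difference was -3.89 ± 1.17 (adjusted p of 0.181 in limma). These values are a description, since Nfatc4 reached the mean of 1 FPKM required for the test through the AstroEGFR* libraries alone and missed it without AstroEGFR*3. Groups that do not overlap with PT lower were found for 7.81% of the 12261 features tested, and nothing is read from Nfatc4 being among them. The PT values are low, of the order of the median of rarely listed features in PT1, PT2 and PT4 (0.0186 to 0.0300 FPKM) and below that of PT3 (0.144 FPKM). The widely expressed gene Gapdh was itself listed at 0.0206, 1.22, 50.1 and 0.0106 FPKM in PT1 to PT4. A value near 0 in this matrix thus need not mean little RNA.

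Some markers of mesenchymal cells moved with Nfatc4. The 10 markers of fibroblasts and meninges, such as Col1a1 and Dcn, summed to 673 to 6676 FPKM in AstroEGFR* and 97.0 to 735 FPKM in PT, with none of them at 0 in these libraries. For 4 of the 10 all PT values were below all AstroEGFR* values, and the others overlapped, with Thy1 at 205 FPKM in PT3 against 2.48 to 413 in AstroEGFR* and Pdgfra at 41.9 FPKM in PT4 against 1.48 to 5.67. The sum in PT3, 735 FPKM, was above those of AstroEGFR*1 and AstroEGFR*2, 721 and 673 FPKM, although Nfatc4 was far lower in PT3. AstroEGFR*3, which had the highest Nfatc4 of the AstroEGFR* libraries, also had the highest sum. All 10 of these markers reached 1 FPKM there, as they did in AstroEGFR*1, where Nfatc4 was at 2.01 FPKM. The 10 markers of smooth muscle, pericytes and the serum response summed to 1147 to 3900 FPKM in AstroEGFR* and 9.93 to 82.9 FPKM in PT, with 6 of the 10 lower without overlap. Of the 10 microglia and macrophage markers, 6 were also lower in PT without overlap. The sums of that list were low, at 3.62 to 13.6 FPKM in AstroEGFR* and 2.03 to 36.7 FPKM in PT. In bulk RNA, fewer cells that express Nfatc4 and less Nfatc4 RNA per cell cannot be told apart, and the part of these cells or of serum in the difference was not tested.

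Of the other NFAT genes, Nfatc1, Nfatc3 and Nfat5 had differences between AstroEGFR* and PT that were smaller than their SE. Nfatc1, known from lymphocytes, osteoclasts and heart valves, was listed at 6.24, 2.001 and 3.84 FPKM in AstroEGFR* and 2.86, 4.98, 3.67 and 3.23 FPKM in PT, with a difference of -0.03 ± 0.36. Nfatc3 was listed at 21.4, 18.7 and 16.0 FPKM in AstroEGFR* and 18.6, 21.5, 14.5 and 15.7 FPKM in PT (-0.09 ± 0.23). Nfat5 was listed at 11.8, 5.11 and 6.25 FPKM in AstroEGFR* and 7.08, 6.34, 5.43 and 7.49 FPKM in PT (-0.13 ± 0.31). In all 3 the groups overlapped. Nfatc2, a factor of T cell activation, was listed at 0.582, 0.368 and 0.430 FPKM in AstroEGFR* and at 0.122, 0.0190, 0 and 0.436 FPKM in PT. It did not reach the mean of 1 FPKM required for the test, and without that filter its difference was -0.36 ± 0.14 (unadjusted p of 0.0333, adjusted p of 0.359 in limma). Each PT library was below the AstroEGFR* library of its batch. PT4 alone of the PT libraries lay within the range of AstroEGFR* for Nfatc2, and the T cell markers summed to at most 1.82 FPKM in any library.

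The Rcan genes behaved unlike each other. Rcan1 was listed at 28.0, 16.5 and 23.3 FPKM in AstroEGFR* and at 19.3, 8.22, 11.8 and 22.4 FPKM in PT. The groups overlapped, but each PT library was below the AstroEGFR* library of its own batch, by 1.45, 2.01, 1.97 and 1.25 times for PT1 to PT4. The difference was -0.59 ± 0.38 with an adjusted p of 0.562, and -0.72 ± 0.18 with an adjusted p of 0.0892 when the batch was fitted as a replicate block in limma. Without PT2 it was -0.34. Rcan2, a second calcineurin inhibitor known for its abundance in brain, was listed at 13.4, 16.2 and 5.82 FPKM in AstroEGFR* and at 30.1, 0.644, 1.26 and 26.0 FPKM in PT. Here the PT libraries split by batch. PT1 and PT4 of batch 1 were 2.24 and 1.93 times AstroEGFR*1, while AstroEGFR*2 and AstroEGFR*3 were 25.2 and 4.61 times PT2 and PT3. The difference over all libraries was -0.67 ± 1.13 (adjusted p of 0.857), and this value describes neither set of libraries. Without PT2 it was 0.05. Markers of the oligodendrocyte lineage moved with Rcan2 among the PT libraries. The 9 markers summed to 1432 FPKM in PT1 and 1784 in PT4, against 161 in PT2 and 156 in PT3. Olig1 was at 1000.3 and 1089 FPKM in PT1 and PT4 and Sox10 at 8.18 and 117, whereas in PT2 and PT3 Olig1 was at 69.3 and 89.8 FPKM and Sox10 at 0.103 and 0. Of the 9 markers, Pdgfra and Cspg4 also stand in the fibroblast or smooth muscle lists. The neuron markers, mostly Tubb3, also moved with Rcan2, at 68.2 and 110 FPKM in PT1 and PT4 against 36.2 and 17.7 FPKM in PT2 and PT3. The part of these cells in the Rcan2 values was not tested, and AstroEGFR*2, with an oligodendrocyte lineage sum of 167 FPKM, had Rcan2 at 16.2 FPKM.

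Of the calcineurin A genes, Ppp3ca was listed at 44.2, 50.0 and 80.7 FPKM in AstroEGFR* and at 57.9, 99.5, 151 and 63.7 FPKM in PT. Each PT library was above the AstroEGFR* library of its batch, by 1.31, 1.99, 1.87 and 1.44 times for PT1 to PT4, although the groups overlapped. The difference was 0.61 ± 0.40 (adjusted p of 0.573), and 0.74 ± 0.18 (adjusted p of 0.0803) with the replicate block in limma. Without PT3 it was 0.34. Ppp3cb was listed at 25.2, 23.4 and 42.2 FPKM in AstroEGFR* and at 21.9, 18.1, 44.9 and 23.8 FPKM in PT (-0.19 ± 0.36). Among all features tested, 18.2% had all 4 PT libraries below the AstroEGFR* library of their batch, as Rcan1 and Nfatc4 had, and 21.7% had all 4 above it, as Ppp3ca had. Rcan1 and Ppp3ca are each 1 of the 8 genes tested. Nfatc4 is not counted for the reason given above but is 1 of the 8, and the shares over all features keep such genes. Nothing is therefore read from these counts beside the shares.

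In all, 0 of the 8 genes tested passed the adjusted threshold between PT and AstroEGFR* in limma, where 152 of 12261 features did (1.24%). At an unadjusted p under 0.05 the count was 1 of 8, Nfatc4, against 1664 of all features, with the limit on Nfatc4 given above. With the replicate block, 475 features were called and again 0 of the 8. The exact permutation test over the 7 libraries, two-sided, gave p values of 0.114 to 0.971 for the 8 genes other than Nfatc4, where 3 against 4 libraries cannot go below 0.0286. It exchanges labels freely and takes no account of the shared batches, of which PT1 and PT4 have the same one.

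**Figure D2:**
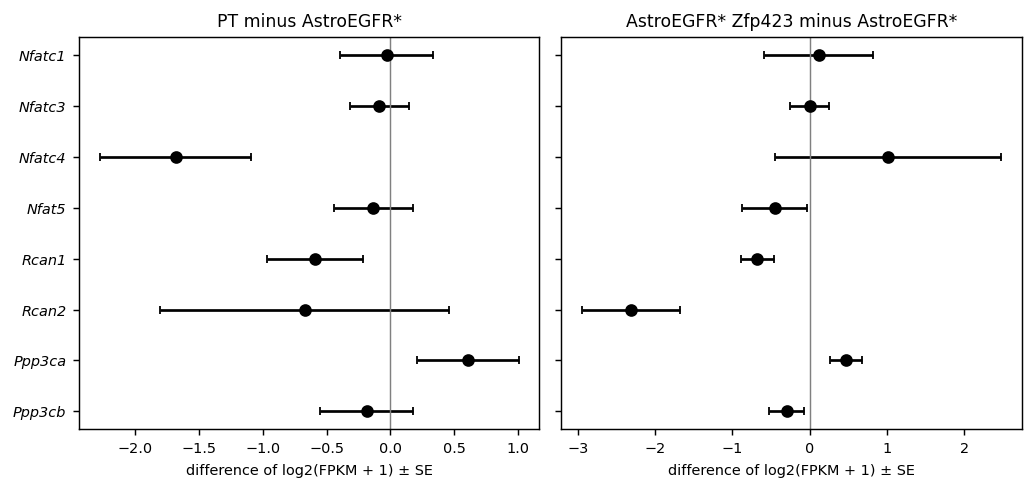
Difference of log2(FPKM + 1) with its SE from limma for the 8 genes tested, PT minus AstroEGFR* on the left (4 and 3 libraries) and AstroEGFR* Zfp423 minus AstroEGFR* on the right (3 pairs, batch as a block). Nfatc4 at -1.68 in PT and Rcan2 at -2.31 with Zfp423 lie farthest from 0, and 0 of the 16 points passed the adjusted threshold.

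The composition of the calcineurin A genes separated AstroEGFR* from both other groups. Ppp3ca made up 57.5% to 60.8% of the summed FPKM of Ppp3ca, Ppp3cb and Ppp3cc in AstroEGFR*, 67.3% to 73.9% in PT and 66.3% to 71.5% in AstroEGFR* Zfp423. Ppp3cb made up 28.5% to 32.7%, 13.5% to 25.5% and 17.9% to 22.2%. These ratios were formed after the values were seen and were not tested. Both comparisons share the 3 AstroEGFR* libraries, so the pair is not independent. The composition of the NFATc genes followed Nfatc4, which made up 2.10% to 27.2% of the sum of Nfatc1 to Nfatc4 in AstroEGFR*, 0.0860% to 0.282% in PT, 30.5% and 37.8% in the AstroEGFR*1 Zfp423 and AstroEGFR*2 Zfp423 libraries and 0.521% in the AstroEGFR*3 Zfp423 library. Nfatc3 made up the largest share in all 10 libraries, from 44.1% to 93.1%.

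**Figure D3:**
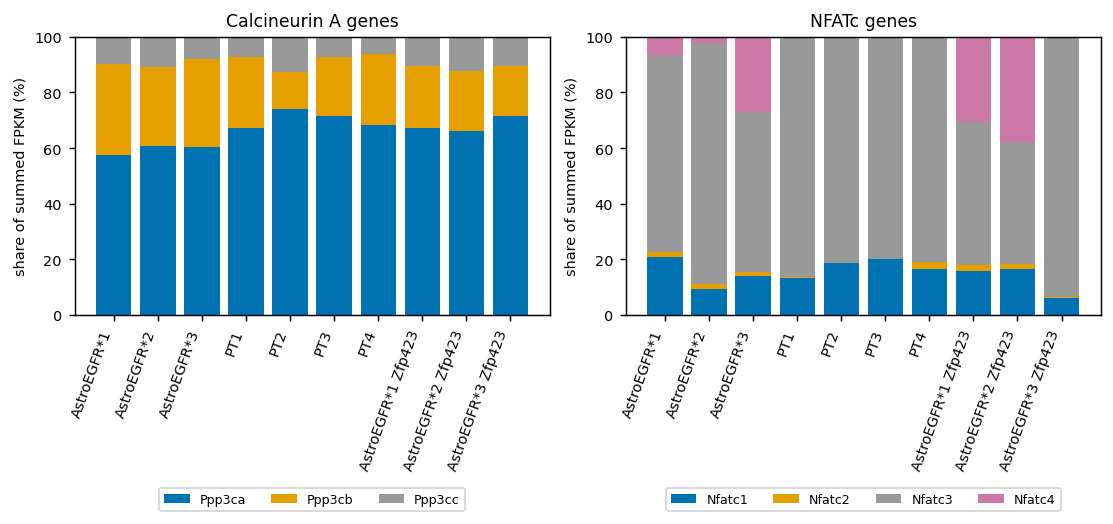
Share (%) of each gene in the summed FPKM of the 3 calcineurin A genes (left) and the 4 NFATc genes (right), 1 bar per library. Ppp3ca lies at 57.5% to 60.8% in AstroEGFR* and at 66.3% to 73.9% in the other 7 libraries, and Nfatc4 is visible in the 3 AstroEGFR* and in 2 of the 3 AstroEGFR* Zfp423 libraries.

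With the Zfp423 vector, Rcan1 and Rcan2 were lower and Ppp3ca higher than in the AstroEGFR* library of the same batch in all 3 batches, and Nfatc4 went in opposite directions. None of these passed the adjusted threshold. Rcan1 was at 15.7, 10.7 and 14.6 FPKM with the vector in batches 1, 2 and 3, against 28.0, 16.5 and 23.3 FPKM without it. All 3 values with the vector were below all 3 without it, and the batches were close to each other, at 1.78, 1.55 and 1.60 times lower. The limma difference was -0.67 ± 0.21 (unadjusted p of 0.0296, adjusted p of 0.628), and -0.72 ± 0.31 without the AstroEGFR*2 Zfp423 library, a fit that rests on batches 1 and 3. Rcan2 was at 1.88, 0.304 and 2.69 FPKM with the vector, against 13.4, 16.2 and 5.82 FPKM without it, which was 7.15, 53.2 and 2.16 times lower, again without overlap. Its difference was -2.31 ± 0.63 (unadjusted p of 0.0195, adjusted p of 0.628), and -1.61 ± 0.53 without the AstroEGFR*2 Zfp423 library. Groups that do not overlap with Zfp423 lower were found for 5.87% of 12366 features, against these 2 of the 8 genes tested. Small RNA and histone features rose with the vector in the same 3 batches, from 0.844% to 35.8%, from 29.7% to 36.1% and from 4.88% to 54.8% of the summed FPKM, and the summed FPKM went from 361102 to 598002, from 529126 to 699547 and from 467575 to 860068. The astrocyte markers summed to 333, 79.4 and 1020 FPKM with the vector against 689, 611 and 1124 without it, and the oligodendrocyte lineage markers, which moved with Rcan2 in PT, to 70.3, 66.4 and 248 FPKM against 311, 167 and 109. The latter were thus lower with the vector in batches 1 and 2 and higher in batch 3, where Rcan2 was lower. The neuron markers, mostly Tubb3, summed to 21.2, 33.6 and 6.62 FPKM with the vector against 28.5, 57.4 and 32.1 FPKM without it. They were thus lower in all 3 batches, with at most 2 of them at or above 1 FPKM in any library. The part of these shifts in the values of Rcan1, Rcan2 and Ppp3ca was not tested.

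Ppp3ca was at 63.5, 68.3 and 112 FPKM with the vector, against 44.2, 50.0 and 80.7 FPKM without it. The ratios of 1.44, 1.37 and 1.39 were the most even of the 9 genes, and the difference was 0.48 ± 0.21 (unadjusted p of 0.0794, adjusted p of 0.630 in limma), and 0.49 ± 0.32 without the AstroEGFR*2 Zfp423 library. Ppp3cb was at 21.0, 22.1 and 28.1 FPKM with the vector (-0.30 ± 0.22), below its batch in all 3 batches by 1.20, 1.06 and 1.50 times. Its difference was -0.41 without the AstroEGFR*2 Zfp423 library and -0.16 without AstroEGFR*3 or its library with the vector. A value below that of the own batch in all 3 batches was found for 15.2% of features and held for 3 of the 8 genes tested, Rcan1, Rcan2 and Ppp3cb. A value above it in all 3 was found for 16.3% and held for Ppp3ca. In limma 0 of 12366 features passed the adjusted threshold (0%) and 913 had an unadjusted p under 0.05, 2 of them among the 8 genes. Without the replicate block, 2 features passed and 0 of the 8.

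Nfatc4 was at 11.7 and 21.5 FPKM in the AstroEGFR*1 Zfp423 and AstroEGFR*2 Zfp423 libraries, 5.85 and 47.5 times the level of their batches, and at 0.0715 FPKM in the AstroEGFR*3 Zfp423 library, 106 times below its batch. The mean difference of 1.01 ± 1.46 (adjusted p of 0.861) describes none of the 3. It was -0.46 ± 1.41 without the AstroEGFR*2 Zfp423 library and 3.02 without the AstroEGFR*3 Zfp423 library. A rise of at least 1 on the log2(FPKM + 1) scale in batches 1 and 2 with a fall of at least 1 in batch 3 was found for 2.54% of features. The sum of the fibroblast and meninges markers moved with Nfatc4 here as well, though not every marker did. They summed to 5203, 7914 and 366 FPKM with the vector, against 721, 673 and 6676 FPKM without it, with Dcn and Lum at 0 in the AstroEGFR*3 Zfp423 library. Against the sum, Lum was lower with the vector in batches 1 and 2 as well, at 1.04 against 1.21 and 0.0196 against 4.02 FPKM. Pdgfra was lower in batch 2 (2.05 against 3.36 FPKM) and Fn1 in batch 1 (354 against 381 FPKM). The microglia and macrophage markers were high in the same pair of libraries as Nfatc4 with the vector, while AstroEGFR*3, with a microglia sum of 3.66 FPKM, had Nfatc4 at 7.55 FPKM. The part of either cell type in the Nfatc4 values was not tested.

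For Nfatc1, Nfatc2 and Nfatc3, as for Nfatc4, the difference from the own batch was highest in batch 2 and lowest in batch 3. Nfatc1 was at 6.07, 9.45 and 0.808 FPKM with the vector, close to its batch in batch 1, 4.72 times higher in batch 2 and 4.75 times lower in batch 3, with a mean difference of 0.11 ± 0.70, and -0.73 ± 0.60 without the AstroEGFR*2 Zfp423 library. Nfatc2 was at 0.817, 0.856 and 0.0680 FPKM with the vector and was again too low for the test. Nfatc3, at 19.9, 25.1 and 12.8 FPKM (0.00 ± 0.25, and -0.20 without the AstroEGFR*2 Zfp423 library), and Nfat5, at 4.26, 7.16 and 4.18 FPKM (-0.45 ± 0.42), overlapped with their levels without the vector. For Nfat5 the batches were 2.77 times lower, 1.40 times higher and 1.50 times lower, and the difference was -0.88 ± 0.44 without the AstroEGFR*2 Zfp423 library and -0.035 ± 0.49 without the AstroEGFR*1 Zfp423 library.

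**Figure D4:**
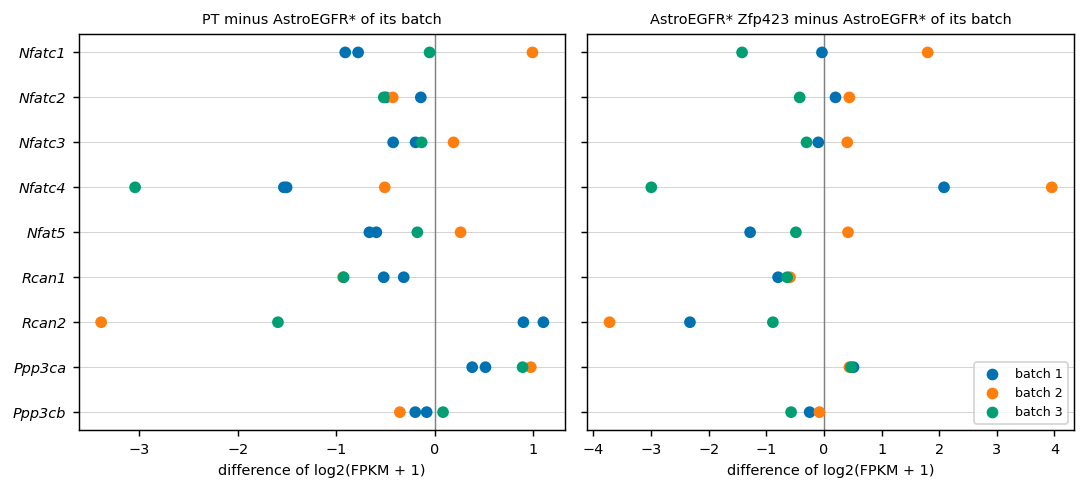
Difference of log2(FPKM + 1) of each PT library (left, 4 points per gene) and each AstroEGFR* Zfp423 library (right, 3 points) from the AstroEGFR* library of its own batch, coloured by batch. Rcan1 lies left of 0 and Ppp3ca right of 0 at every point in both panels, while Rcan2 in PT and Nfatc4 with Zfp423 lie on both sides.

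**Figure D5:**
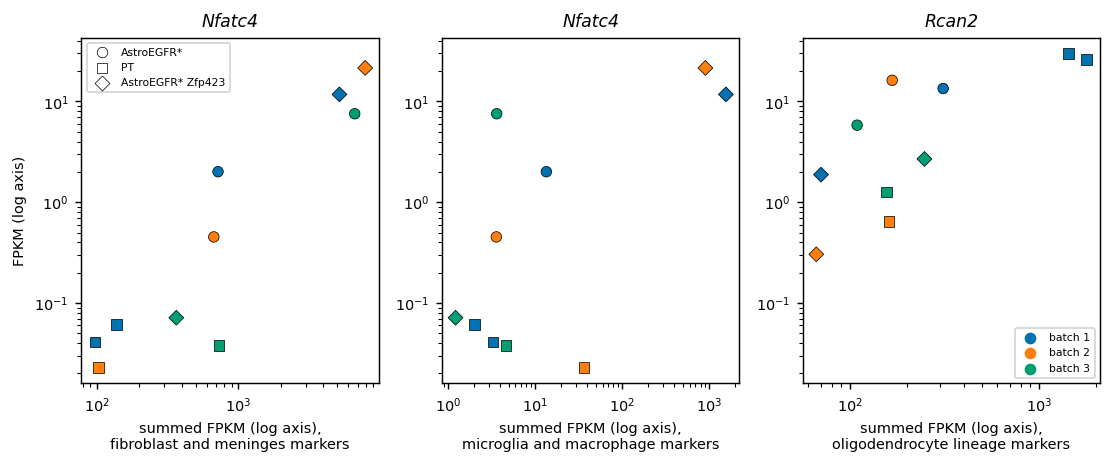
FPKM of Nfatc4 (left and middle) and Rcan2 (right) in the 10 libraries on log axes, against the summed FPKM of the fibroblast and meninges, microglia and macrophage and oligodendrocyte lineage markers, with symbols for the groups and colours for the batches. The 3 libraries with Nfatc4 at 7.55 to 21.5 FPKM are those with a fibroblast sum of 5203 to 7914 FPKM, and the 2 libraries with Rcan2 at 26.0 and 30.1 FPKM are those with an oligodendrocyte lineage sum of 1432 and 1784 FPKM.

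The rest of the pathway was read from 5 lists, of which 0 genes passed the adjusted threshold in either comparison. Between PT and AstroEGFR*, the 9 tested of 16 other calcineurin subunits and binding proteins had a median difference of 0.06 on the log2(FPKM + 1) scale, against 0.03 over all features. The largest differences were those of Bcl2, an inhibitor of cell death that binds calcineurin (-1.03 ± 0.30, adjusted p of 0.178), and Fkbp1b, an FK506-binding protein (-0.97 ± 0.42). Ppp3r1, the B subunit, was at 45.3 to 96.3 FPKM in AstroEGFR* and 55.0 to 100.2 FPKM in PT. Among 14 tested of 16 calmodulin and calcium entry genes (median -0.03), the IP3 receptors Itpr2 and Itpr3 had differences of 1.23 ± 0.47 and -1.08 ± 0.57. Among 13 tested of 14 NFAT kinases and partners (median -0.13), Dyrk1b, a kinase of the DYRK family, was at 10.5, 5.59 and 9.45 FPKM in AstroEGFR* and 2.81 to 4.02 FPKM in PT (-1.07 ± 0.28, adjusted p of 0.143), and the scaffold gene Homer1 had a difference of 0.54 ± 0.23.

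Genes known as NFATc targets in other cells did not move one way in PT. Of the 12, 6 were tested, 2 with a positive and 4 with a negative difference (median -0.30). The signs are counted as values only, since the list does not say which way each target responds to NFATc factors. Lcn2, the acute-phase protein lipocalin, was at 15.2, 0.657 and 0 FPKM in AstroEGFR* and 17.3, 673, 43.0 and 13.3 FPKM in PT (4.14 ± 1.49, adjusted p of 0.284). The cytokine gene Il6 had a difference of -0.53 ± 0.77, which turned to 0.36 without AstroEGFR*3 and was -1.03 without AstroEGFR*2. Il6 was at 6.23 FPKM in AstroEGFR*3 and would miss the filter without that library, so the value of 0.36 was formed without the filter. Of the 7 genes known as Nfat5 targets in osmotic stress, 6 were tested, 5 with a negative difference (median -0.54). Slc6a6, the taurine transporter, was at 207, 80.2 and 278 FPKM in AstroEGFR* and 38.6, 8.63, 13.9 and 27.4 FPKM in PT, a difference of -3.06 ± 0.60 with an adjusted p of 0.0633 and no overlap of the groups, while Nfat5 itself had a difference of -0.13. Hspa4l, a heat shock protein, had a difference of -0.74 ± 0.56, which was -0.30 without AstroEGFR*2 and -1.28 without AstroEGFR*3.

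With Zfp423, the medians of the same 5 lists were -0.06, 0.07, -0.03, 0.71 and -0.04, against 0.02 over all features, and 0.05, 0.23, -0.05, -0.45 and -0.24 without the AstroEGFR*2 Zfp423 library. Of the 12 NFATc targets 7 were tested, and the batches differed. The median of these 7 was 1.15 in batch 1, 1.72 in batch 2 and -1.04 in batch 3, with 5, 6 and 1 above the AstroEGFR* library of the batch. The sums of the fibroblast and meninges and of the microglia and macrophage markers also rose in batches 1 and 2 and fell in batch 3. Their part in these medians was not tested. One of the 7, Tnf, reached the filter only through libraries with the vector. The median of the other 6, Lcn2 among them, was 0.43 over the batches. Tnf, a cytokine of macrophages, was at 5.09 and 6.29 FPKM in the AstroEGFR*1 Zfp423 and AstroEGFR*2 Zfp423 libraries, which hold the microglia markers, and at 0 to 0.135 FPKM in the other 8 libraries (1.76 ± 0.75, adjusted p of 0.628). Lcn2 reached the filter only through AstroEGFR*1, at 15.2 FPKM against 0 to 0.657 FPKM in the rest of this comparison. Its difference, a description only, was -1.28 ± 0.98, with -3.74, -0.65 and 0.55 in batches 1 to 3, and -0.05 without batch 1. The largest differences of the other lists were those of Fkbp1a (-1.30 ± 0.63) and Ppp3cc (0.48 ± 0.22), of Itpr3 (1.37 ± 0.35, adjusted p of 0.628) and the phospholipase gene Plcg2 (0.97 ± 0.49), of Dyrk1b (-0.73 ± 0.28) and Mef2c (0.63 ± 0.72), and of the aldose reductase gene Akr1b3 (0.83 ± 0.50) and Slc6a6 (-0.59 ± 0.59). Single batches carried several of these values. Without the AstroEGFR*2 Zfp423 library, Mef2c turned to -0.18 and the others were at 1.21 (Tnf), -1.60 (Lcn2), -2.16 (Fkbp1a), 0.48 (Ppp3cc), 1.08 (Itpr3), 1.29 (Plcg2), -0.79 (Dyrk1b), 1.21 (Akr1b3) and -0.89 (Slc6a6). Without batch 1, Plcg2 was at 0.36, Akr1b3 at 0.21 and Slc6a6 at -1.08. Without batch 3, Slc6a6 turned to 0.20, Fkbp1a was at -0.84, Lcn2 at -2.20, Tnf at 2.64 and Mef2c at 1.50. Itpr3 was higher than its batch in all 3 batches, at 6.84, 20.7 and 15.7 FPKM against 3.96, 4.62 and 4.88 FPKM.

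The features most like Nfatc4 over the 10 libraries, by the mean absolute difference between centred log2(FPKM + 1) profiles among 12476 features, were Ptk2b (0.18), a calcium-sensitive tyrosine kinase, Ctla2a (0.18) and Fam20a (0.25). Ptk2b was at 2.16, 1.67 and 5.04 FPKM in AstroEGFR*, 0 to 0.0619 FPKM in PT and 12.1, 23.6 and 0.0900 FPKM with Zfp423. Among the features most like Rcan2, which were farther from it, were Igsf11 (0.49), an adhesion molecule, and Zcchc18 (0.57). Igsf11 was at 10.6 and 20.2 FPKM in PT1 and PT4 and at 1.19 and 3.15 FPKM in PT2 and PT3.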

How the data were processed

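RNA was sequenced from 3 AstroEGFR*, 4 PT and 3 AstroEGFR* Zfp423 cultures. The authors deposited 1 matrix of FPKM values, fragments scaled by transcript length and library size, with 1 row per gene symbol. The submitters' processing notes name TopHat 1.3, Cuffnorm and the mm9 build, and every column was used. The labels name a TruSeq RNA kit and call the Zfp423 vector lentiviral, whereas the paper describes ribosomal RNA removal and a retroviral vector. FPKM hold no counts. No count model was therefore fitted, and both the depth and the precision it gives to a gene are unknown. P-values measure the spread between these cultures.

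The filter kept features whose mean over the compared libraries reached 1 FPKM, and these were tested on log2(FPKM + 1) with limma 3.58.1 in R 4.3.3 (empirical Bayes with trend, Benjamini-Hochberg over all features, threshold 0.05). A difference on this scale understates the change of low genes. AstroEGFR* with and without Zfp423 were compared with the astrocyte batch as a block, PT and AstroEGFR* without it. Group labels were also permuted exactly over the 7 libraries for single genes, whereas 3 pairs cannot give a two-sided p below 0.25. The procedure was tested on simulated data. Tables and figures used Python 3.11.15, numpy 2.4.6, pandas 2.3.3 and matplotlib 3.10.9.

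The batch of each PT library was taken from a figure of the paper, not from the labels. Xist was listed at 20.4 to 34.9 FPKM in the 3 libraries of batch 2 and at 0 to 0.0403 FPKM in the other 7, and Ddx3y was at 14.1 to 57.8 FPKM in those 7 and at 0.0376 to 0.114 in batch 2, so the sex of the cells follows the batch numbers. Deviations from the group mean over 12476 features correlated with those of the AstroEGFR* library of the same batch at 0.346, 0.426, 0.499 and 0.422 in PT1 to PT4. They correlated at 0.241, -0.111 and -0.262 in the 3 Zfp423 libraries, which are paired by the shared batch, while AstroEGFR*2 Zfp423 correlated at 0.308 with AstroEGFR*3 and AstroEGFR*3 Zfp423 at 0.224 with AstroEGFR*2.

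The genes and lists were chosen with earlier results of these data known. Of the 5 pathway lists, genes past the threshold were to be named and otherwise the 2 with the largest absolute difference in each comparison. Ppp3r1 was added after its values were seen. The 3 nearest features were taken for Nfatc4 and for the gene with the widest range, and 1 of them is not reported here. Promoter windows came from RefSeq on GRCm38.p6, matched by symbol for 7 of the 9 genes (not Nfatc1 and Ppp3ca). ChIPseq data were not used here.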

Additional observations from a re-analysis of the deposited data

Results flagged for a closer look

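Differences between batches were marked where every library of one batch moved by at least 0.5 on the log2(FPKM + 1) scale one way and every library of another batch moved by as much the other way against the AstroEGFR* library of its batch. None of these differences was tested, since a batch holds 1 or 2 libraries. Nfatc4 with Zfp423 was higher in batches 1 and 2 and lower in batch 3, and the highest and lowest batch lay 6.95 apart. Nfatc1 with Zfp423 was higher in batch 2 and lower in batch 3, 3.22 apart. Rcan2 in PT was higher in batch 1, where there are 2 libraries, and lower in batches 2 and 3, 4.39 apart. Nfatc1 in PT was higher in batch 2 and lower in batch 1, 1.84 apart.

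No PT library lay far from the other 3 for any of the 9 genes by Dixon's test at its 95% critical value. The widest gap to the nearest library was 0.706 of the range, for Ppp3cb in PT3. AstroEGFR* with and without Zfp423, with 3 libraries each, were not tested in this way.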

How the results depend on the processing

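The count of the 9 genes past the adjusted threshold stayed at 0 in both comparisons under every alternative run. These were median-ratio scaling, a pseudocount of 0.1, the omission of the filter, no trend in the empirical Bayes step, all 10 libraries in 1 fit, a minimum difference of 1, the replicate block added or removed, PT1 and PT4 averaged, and each library left out. Leaving out both libraries of batch 3 was added after seeing the data, as were the mean levels without the AstroEGFR*2 Zfp423 library and the pathway values with single libraries or batches left out. These pathway values were formed without applying the filter again. The lowest adjusted p of any of the genes was 0.0803, for Ppp3ca in PT with the replicate block. The number of features called among all tested did move. Between PT and AstroEGFR* it was 152, but 475 with the replicate block, 82 with all 10 libraries in 1 fit, 59 with PT1 and PT4 averaged, 8 without batch 3, 7 without AstroEGFR*1, 54 without AstroEGFR*3, 97 without PT1, 70 without PT2 and 58 without PT4. With Zfp423 it was 0, but 2 with no replicate block, 47 without AstroEGFR*2 and 60 without the AstroEGFR*2 Zfp423 library. With each library left out the direction of a gene's difference turned in 7 of 55 refits between PT and AstroEGFR* and in 6 of 48 with Zfp423, for Nfatc1 (-0.36 to 0.28), Nfatc3 (-0.19 to 0.0083), Nfat5 (-0.35 to 0.18), Rcan2 (-1.36 to 0.054) and Ppp3cb (-0.45 to 0.070) in PT and for Nfatc1 (-0.73 to 0.88), Nfatc3 (-0.20 to 0.15) and Nfatc4 (-0.46 to 3.02) with Zfp423. Nfatc3 with Zfp423, at 0.00, was also -0.00091 with a pseudocount of 0.1 and -0.035 with median-ratio scaling. Nfatc4 in PT ranged from -2.29 to -1.68, Rcan1 in PT from -0.79 to -0.34, Ppp3ca in PT from 0.34 to 0.86 and with Zfp423 Rcan1 from -0.72 to -0.61, Rcan2 from -3.02 to -1.61, Ppp3ca from 0.46 to 0.49, Ppp3cb from -0.41 to -0.16 and Nfat5 from -0.88 to -0.035. Without AstroEGFR*3, Nfatc4 did not reach the filter and has no value. The causes were not tested.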

Other observations

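Of the 3 Rcan genes, Rcan3 took a larger and Rcan2 a smaller share of their sum in each library with Zfp423 than in any AstroEGFR* library. Rcan3, a further calcineurin-binding member of the family, made up 20.8% to 25.0% of the summed FPKM of Rcan1, Rcan2 and Rcan3 in AstroEGFR*, 35.9% to 50.3% in AstroEGFR* Zfp423 and 13.3% to 49.6% in PT. Its own level was 11.9, 11.1 and 9.66 FPKM with the vector in batches 1, 2 and 3 against 13.9, 9.86 and 7.64 FPKM without it (0.08 ± 0.24, adjusted p of 0.932 in limma), while Rcan1 and Rcan2 were lower in all 3. Rcan2 made up 15.8% to 38.0%, 1.38% to 9.98% and 3.66% to 52.8%. Rcan1 made up 38.8% to 63.4%, 48.3% to 54.2% and 33.9% to 64.5%, so that its share with Zfp423 lay within the range of AstroEGFR*. The sum of the 3 genes was 36.7 to 55.3 FPKM in AstroEGFR*, 22.1 to 29.5 FPKM in AstroEGFR* Zfp423, and in PT 56.9 and 59.1 FPKM in batch 1 against 17.6 and 18.3 FPKM in batches 2 and 3. The shares were formed after the values were seen and carry no test.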
